A study of Mus musculus with 6 samples.

Results

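Caspases are cysteine proteases that cut their targets after aspartate and carry out programmed cell death. The genes described here are 6 mouse caspases (Casp1, Casp2, Casp4, Casp6, Casp8 and Casp9) with Apaf1, the scaffold of the apoptosome, and Xiap, a caspase inhibitor. They were taken by gene symbol, from a list made with earlier results of these data known. All 8 of 8 were found among the 22529 genes of the deposited table and among the 10839 genes tested.

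RNA-seq was done on CD4 T cells of wild-type C57/BL6 mice, in 3 libraries with an empty MigR1 retrovirus and 3 with the same vector carrying Blimp-1 cDNA. Naive cells from spleen and lymph node were activated on plate-bound antibodies to CD3 and CD28 in both groups, each coated at 10 ug/ml, while blocking antibodies held off IL-4 and interferon-gamma (Th0 conditions). They were transduced after 36 hours, kept for 2 days more and sorted for the vector's GFP, while another label gives 3 days of activation. The labels call the 3 libraries of a vector independent biological replicates and give no age of the mice. Blimp-1, the product of Prdm1, is a transcriptional repressor. The comparison asks how its forced expression changes activated cells that were given no polarising cytokine.

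Apoptosis starts from 2 directions in T cells. Death receptors such as Fas bring caspase-8 together through the adapter Fadd. Damaged mitochondria release cytochrome c, on which Apaf1 assembles into a wheel that activates caspase-9. Both routes end in the executioner caspases, and Xiap blocks caspase-9 and the executioners directly. Casp1 and Casp4 belong to a separate, inflammatory branch, in which inflammasomes lead to cleavage of gasdermin D and lysis of the cell. Activated T cells expand and then contract by the death receptor and mitochondrial routes.

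Prdm1 was measured as 0.996, 2.03 and 1.38 FPKM in empty vector cells, against 9.91, 12.8 and 9.45 in Blimp-1 cells in replicates 1 to 3, with viral and endogenous transcripts counted together. FPKM is the number of reads scaled to transcript length and library size, so it allows levels to be compared between genes and gives shares of the RNA pool. In bulk RNA, fewer cells that express a gene and less RNA per cell cannot be told apart. The libraries held an estimated 17.4 to 38.0 M reads for the empty vector, and 33.8 to 45.9 M for Blimp-1. Empty vector replicate 3 stood apart on the first principal component (52.8% of the variance), at -33.6 against -12.5 to 22.8 in the other 5 libraries. Same-numbered libraries deviated together from their vector's mean, so differences are given by replicate pair. The 6 T cell markers summed to 1638 to 1960 FPKM with the empty vector and to 1650 to 1827 with Blimp-1. Markers of dendritic cells and neutrophils were all below 1 FPKM in each library.

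Casp1, Casp4, Apaf1 and Xiap were each higher with Blimp-1 in 3 of 3 pairs, by 11.5% to 29.4%. Casp9 was lower in 3 of 3 pairs, with differences from -9.22% to -14.6%. Casp2, Casp6 and Casp8 had mixed signs. Of all genes tested, 22.9% were higher and 22.8% lower in 3 of 3 pairs. In pairs 1 and 2 alone, the same 4 genes were higher and Casp9 was lower, against 34.7% and 34.1% of all genes. The median log2 fold change of the 8 genes was 0.15, against -0.01 over all genes tested, and their medians in pairs 1, 2 and 3 were 0.12, 0.08 and 0.22.

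None of the 8 genes passed limma's test over all genes at an adjusted p of 0.05, either without the replicate number as a block (adjusted p = 0.998 for each) or with it (adjusted p from 0.15 to 0.639). Without the block 0% of all genes passed, and with the block 0.00923% passed as higher and 0.00923% as lower, 0.0185% in all. The only gene that passed as higher was Prdm1, the gene carried by the vector (limma adjusted p = 0.00493). Without the block Prdm1 did not pass either (limma adjusted p = 0.056). At an unadjusted p below 0.05, none of the 8 was found without the block, where 1.13% of all genes were (0.664% higher and 0.461% lower). With the block, Casp1, Casp4, Apaf1 and Xiap were found as higher by this measure and none as lower, against 9.79% and 10.7% of all genes. For none of the 8 genes did the values of the vectors separate, while 2.29% of all genes had every Blimp-1 value above every empty vector value and 2.34% had every one below.

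**Figure D1:**
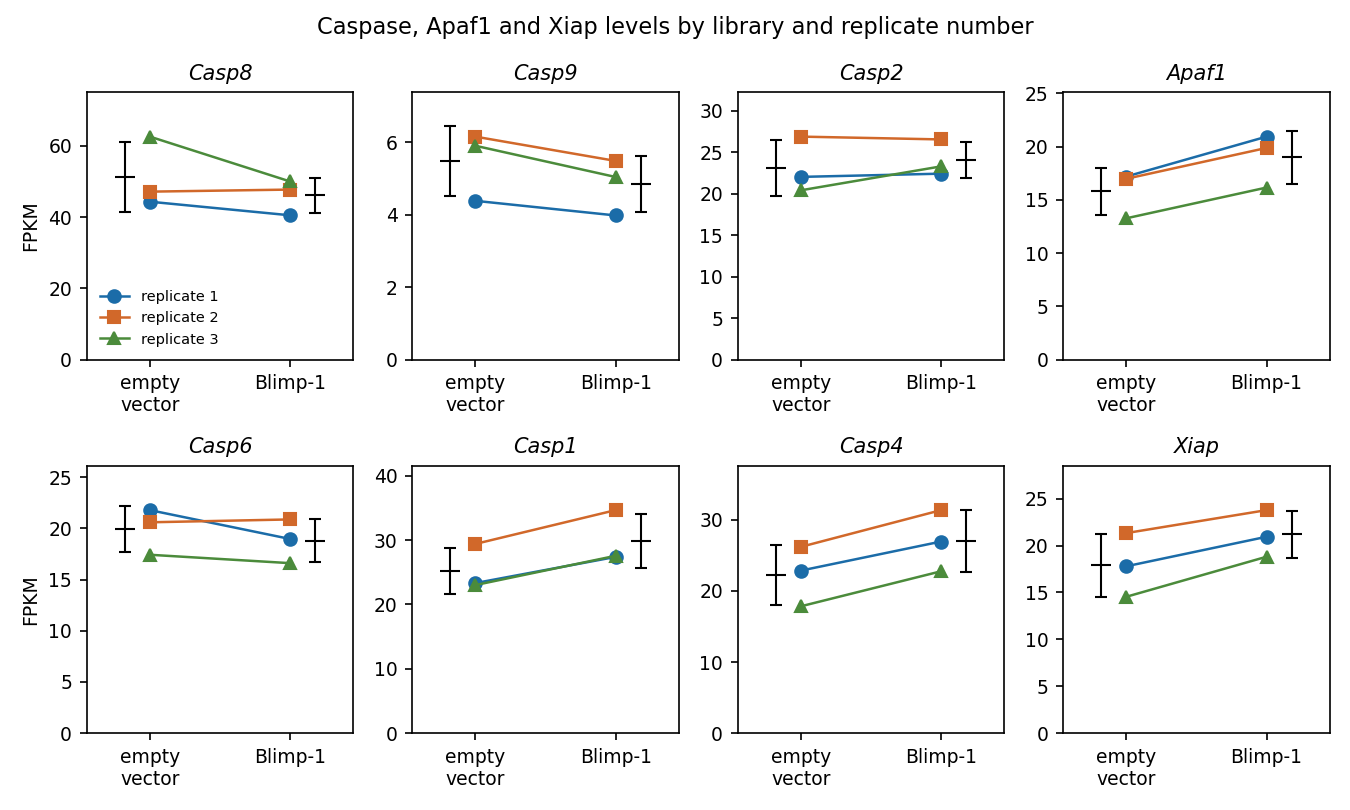
FPKM of the 8 genes in each library, on axes that start at 0, with lines joining libraries of the same replicate number and black bars for the mean ± SD of each vector (n = 3). The lines of Casp1, Casp4, Apaf1 and Xiap go up in 3 of 3 pairs and that of Casp9 goes down in 3 of 3, while the ranges of the vectors overlap in every panel.

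The order of the mean levels over the 6 libraries was Casp8 at 48.7 ± 7.54 FPKM, Casp1 at 27.6 ± 4.3, Casp4 at 24.7 ± 4.6, Casp2 at 23.6 ± 2.6, Xiap at 19.5 ± 3.22, Casp6 at 19.4 ± 2.06, Apaf1 at 17.4 ± 2.74 and Casp9 at 5.16 ± 0.856 (SD, n = 6). Casp8 lay above Casp1 in 6 of 6 libraries, Casp1 above Casp4 in 6 of 6, Casp2 above Xiap in 6 of 6, and Apaf1 above Casp9 in 6 of 6. Casp4 and Casp2 could not be ordered, since Casp4 was the higher in 3 of 6 libraries. Neither could Xiap and Casp6, since Xiap was the higher in 4 of 6, and Casp6 was above Apaf1 in 5 of 6. Casp9, the protease of the apoptosome, had the lowest level of the 8 genes in each library.

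Apaf1, which binds cytochrome c and recruits procaspase-9, was measured as 17.2, 17.0 and 13.3 FPKM in empty vector cells, against 20.9, 19.9 and 16.2 in Blimp-1 cells in replicates 1 to 3. Each Blimp-1 library was above its own partner, while the groups overlapped through Blimp-1 replicate 3. The pairs differed by 21.8%, 17.0% and 21.8%. The mean level was 15.8 ± 2.21 FPKM without and 19.0 ± 2.51 FPKM with Blimp-1 (SD, n = 3 each), and the log2 fold change was 0.25, with a 95% interval of -0.12 to 0.62 without the block and 0.10 to 0.41 with it. The limma adjusted p with the block was 0.156.

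The table held a pair of RefSeq transcripts of Apaf1. The longer one (6577 bases) made up 57.6%, 67.1% and 33.6% of the gene's FPKM with the empty vector and 49.7%, 61.0% and 33.6% with Blimp-1. The balance between the transcripts thus followed the replicate number, with replicate 3 alike in both vectors. Both transcripts were higher with Blimp-1 in 3 of 3 pairs. The longer went from 8.59 ± 3.65 to 9.32 ± 3.47 FPKM and the shorter (6433 bases) from 7.23 ± 1.61 to 9.67 ± 1.66 (SD, n = 3 each). Most of their sequence is shared, so the split between them is an estimate of the authors' quantification. With the most abundant transcript alone in place of the sum, the log2 fold change of Apaf1 was 0.13 with an SE of 0.37.

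**Figure D2:**
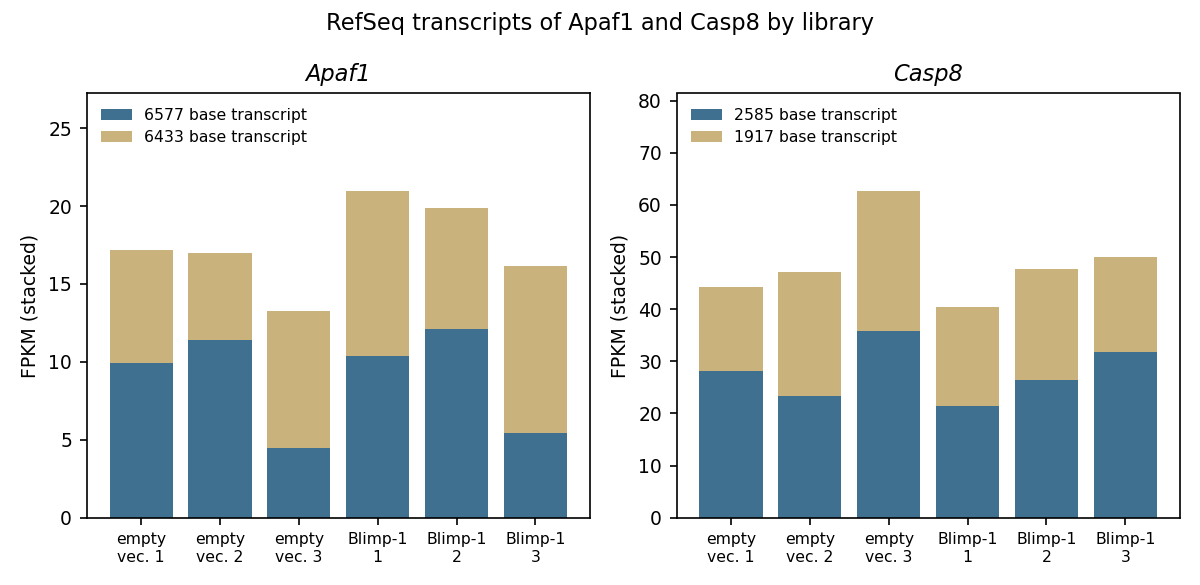
FPKM of the RefSeq transcripts of Apaf1 and Casp8 in each of the 6 libraries, stacked so that the bar height is the gene's sum. The 6577 base transcript of Apaf1 is the smaller part in both replicate 3 libraries, at 33.6% of the sum.

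Casp9, the initiator caspase that Apaf1 activates, was measured as 4.38, 6.16 and 5.90 FPKM in empty vector cells, against 3.98, 5.48 and 5.04 in Blimp-1 cells. It was lower in each pair (-9.22%, -10.9% and -14.6%), and the groups overlapped. The log2 fold change was -0.15, with a 95% interval of -0.31 to 0.02 with the block (limma adjusted p = 0.277). In the fit without the block it was -0.28 without empty vector replicate 1, -0.23 without Blimp-1 replicate 2, -0.10 without empty vector replicate 3, -0.07 without empty vector replicate 2, -0.04 without Blimp-1 replicate 1 and -0.02 with array weights. About 310 to 981 reads lay behind these values, so counting error alone reaches 5.68% (1 SD) in the shallowest case. Apaf1 and Casp9 therefore differed in the opposite sense in each pair. Cycs, which encodes cytochrome c, was measured as 13.2, 11.4 and 20.4 FPKM in empty vector cells, against 11.2, 12.2 and 11.97 in Blimp-1 cells, so that only empty vector replicate 3 was far from the rest.

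Xiap, which encodes the X-linked inhibitor of apoptosis, was measured as 17.8, 21.3 and 14.5 FPKM in empty vector cells, against 20.9, 23.8 and 18.8 in Blimp-1 cells. The pairs differed by 17.7%, 11.5% and 29.4%, most in pair 3, where the empty vector library was the lowest of all 6. The mean went from 17.9 ± 3.4 to 21.2 ± 2.49 FPKM (SD, n = 3 each). The log2 fold change was 0.24, with a 95% interval of 0.07 to 0.42 with the block (limma adjusted p = 0.176). Diablo, the mitochondrial protein that displaces caspases from Xiap, was measured as 7.91, 9.90 and 16.7 FPKM in empty vector cells, against 6.26, 9.88 and 9.67 in Blimp-1 cells. The difference was near 0 in pair 2 (-0.237%) and largest in pair 3 (-42.1%).

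Casp8, the initiator of the death receptor route, was measured as 44.3, 47.1 and 62.6 FPKM in empty vector cells, against 40.5, 47.7 and 50.0 in Blimp-1 cells. It was lower in pairs 1 and 3, at -8.63% and -20.1%, and 1.23% higher in pair 2. Empty vector replicate 3 held the highest value of the 6 libraries, and without that library the log2 fold change went from -0.14 to 0.01. The 95% interval with the block was -0.35 to 0.06 (limma adjusted p = 0.374). Its 2585 base transcript was measured as 28.1, 23.3 and 35.9 FPKM in empty vector cells, against 21.5, 26.4 and 31.7 in Blimp-1 cells. The 1917 base transcript was at 16.3, 23.8 and 26.7 FPKM and at 19.0, 21.4 and 18.3. Each was higher in 1 of 3 pairs, the longer in pair 2 and the shorter in pair 1.

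Caspase-8 is activated in a complex with an adapter and a restraining partner, and none of their genes passed the test. Fadd, the adapter, was lower in 3 of 3 pairs, with means of 4.25 ± 1.14 and 3.8 ± 0.911 FPKM (SD, n = 3 each). Cflar, whose product FLIP restrains caspase-8, was at 15.2 ± 3.23 and 16.3 ± 2.28 FPKM and higher in 2 of 3 pairs. Fas was at 33.1 ± 3.9 and 34.3 ± 5.3 FPKM.

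Casp2, a caspase activated on the PIDDosome scaffold, was measured as 22.1, 26.9 and 20.4 FPKM in empty vector cells, against 22.4, 26.6 and 23.3 in Blimp-1 cells. Pairs 1 and 2 differed by 1.75% and -1.24%, and pair 3 by 14.1%. The log2 fold change was 0.06, with a 95% interval of -0.11 to 0.24 with the block (limma adjusted p = 0.639). Counting error was at most 2.83% (1 SD). Of its scaffold partners, Cradd was lower in 3 of 3 pairs (10.7 ± 2.5 and 8.99 ± 1.53 FPKM, SD, n = 3 each). Pidd1 was lower in 2 of 3, measured as 7.68, 4.44 and 12.7 FPKM in empty vector cells, against 4.80, 4.71 and 10.1 in Blimp-1 cells.

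Casp6, an executioner caspase that cuts nuclear lamins, was measured as 21.8, 20.6 and 17.4 FPKM in empty vector cells, against 19.0, 20.9 and 16.6 in Blimp-1 cells. The pairs differed by -12.9%, 1.40% and -4.75%, and both replicate 3 libraries were the lowest of their vector. The log2 fold change was -0.08, with a 95% interval of -0.26 to 0.10 with the block (limma adjusted p = 0.556).

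Casp1, the inflammasome caspase that matures IL-1 family cytokines, was measured as 23.3, 29.4 and 23.0 FPKM in empty vector cells, against 27.4, 34.7 and 27.6 in Blimp-1 cells. Replicate 2 was the highest of each vector, and each Blimp-1 library was above its partner by nearly the same share, 17.4%, 17.9% and 19.8%. The mean went from 25.2 ± 3.6 to 29.9 ± 4.15 FPKM (SD, n = 3 each). The log2 fold change was 0.23, with a 95% interval of -0.13 to 0.60 without the block and 0.08 to 0.39 with it (limma adjusted p = 0.157 with the block). The counting error of the shallowest library was 4.09% (1 SD).

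Casp4, whose mouse product senses bacterial lipopolysaccharide in the cytosol, was measured as 22.9, 26.2 and 17.8 FPKM in empty vector cells, against 26.9, 31.4 and 22.8 in Blimp-1 cells. The pairs differed by 17.9%, 19.8% and 27.6%. The order of the replicates was the same with both vectors, with replicate 2 the highest and replicate 3 the lowest. The mean went from 22.3 ± 4.21 to 27.03 ± 4.3 FPKM (SD, n = 3 each), and the log2 fold change was 0.27, with a 95% interval of 0.11 to 0.43 with the block (limma adjusted p = 0.15).

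Myeloid cells also express these inflammatory caspases. The 8 myeloid markers summed to 2.47 to 3.02 FPKM with the empty vector and to 2.5 to 3.66 with Blimp-1, and 6 of them were below 1 FPKM in each library. The most abundant, Cd68, was at 1.09 to 2.06 FPKM. The 5 NK cell markers summed to 3.34 to 28.4 FPKM and 13.7 to 35.3 FPKM, most of it Klrd1, followed by Klrk1. Of the others, Ncr1 was at 0 in each library, Klrb1c at most at 0.022 FPKM and Klra8 at most at 0.015. Klrd1 was higher with Blimp-1 in 3 of 3 pairs, going from 12.7 to 15.1, from 26.2 to 30.4 and from 3.16 to 12.8 FPKM. So was Klrk1, going from 1.02 to 1.04, from 2.13 to 4.87 and from 0.158 to 0.903 FPKM. The 6 B cell markers summed to 1.88 to 5.29 and 1.77 to 6.29 FPKM. Erythroid markers, led by the globin gene Hba-a1, summed to 1.2 to 9.97 FPKM and 0.311 to 1.64 FPKM. Hba-a1 was lower in 3 of 3 pairs, going from 1.15 to 0.331, from 1.1 to 0.126 and from 9.82 to 1.49 FPKM. Cd8a and Cd8b1 together came to 7.18 to 10.4 and 7.94 to 11.0 FPKM, nearly all of it Cd8b1, with Cd8a at 0.101 to 0.169. The stromal markers, nearly all Pecam1, came to 29.1 to 52.9 and 29.6 to 45.6 FPKM. Col1a1, Col1a2 and Pdgfra were each at 0.0597 FPKM or below in every library. What part, if any, other cell types had in the caspase values was not tested.

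**Figure D3:**
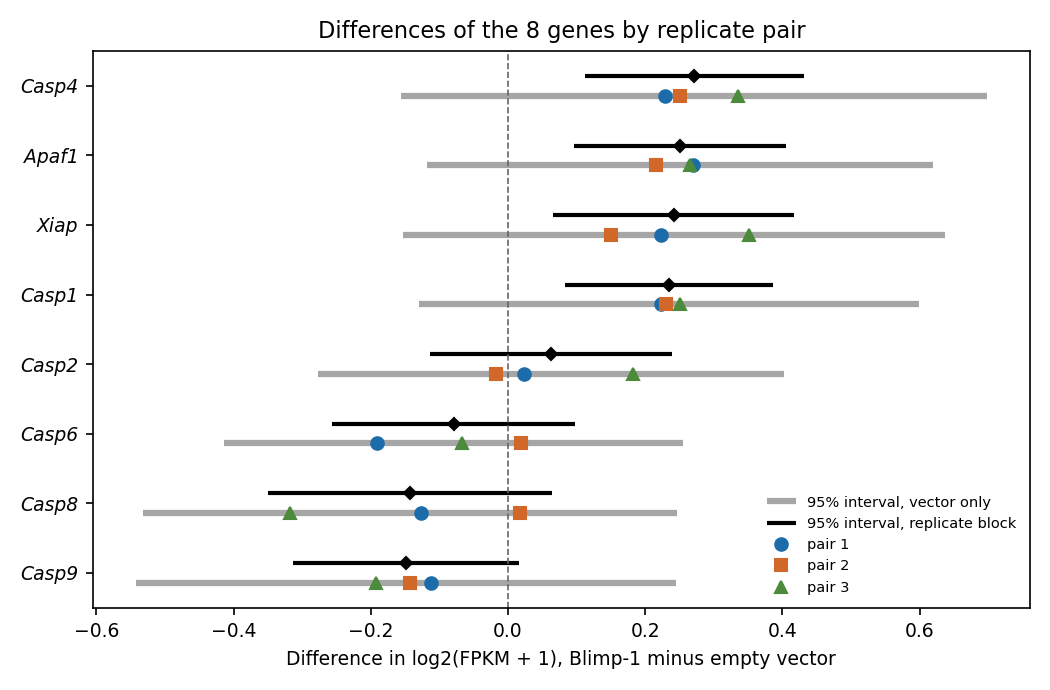
Differences in log2(FPKM + 1), Blimp-1 minus empty vector, for each replicate pair (coloured symbols), with 95% intervals of the fit with the vector as the only term (grey) and of the fit with a replicate block (black, diamond at the estimate), not adjusted for the number of genes. The blocked intervals of Casp4, Apaf1, Xiap and Casp1 lie above 0 (lower ends 0.11, 0.10, 0.07 and 0.08), and all grey intervals include 0.

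Single libraries bear on the size of these differences. Empty vector replicate 3 was the lowest of the 6 libraries for Casp1, Casp2, Casp4, Apaf1 and Xiap, and the highest for Casp8. Without it, in the fit without the block, the log2 fold change of Casp1 was 0.17, that of Casp4 0.13, that of Apaf1 0.14 and that of Xiap 0.11. Without Blimp-1 replicate 2 it was 0.13 for Casp1, 0.16 for Casp4 and 0.16 for Xiap, and without empty vector replicate 2 it was 0.37 for Xiap. With both replicate 3 libraries left out of the blocked fit, a choice made after the data had been seen, these were 0.23, 0.24, 0.24 and 0.19. In that fit of 4 libraries Casp4 (limma adjusted p = 0.0388), Apaf1 (0.0408) and Casp1 (0.0492) passed as higher and Xiap (0.114) did not, while 4.95% of all genes passed as higher and 6.18% as lower. None of the 8 genes passed with pair 1 or pair 2 left out.

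The promoters of the 4 genes that were higher in 3 of 3 pairs are shown because Blimp-1 binds DNA at sites built around the letters GAAAG. Each is the 250 bases before the first transcription start listed for the gene by RefSeq on GRCm38.p6, printed in the gene's direction, with GAAAG, or CTTTC where it lies on the other strand, in capitals. The deposited values were made on mm9, and the coordinates here are those of the RefSeq table.
Casp1, chr9:5298267-5298516, plus strand: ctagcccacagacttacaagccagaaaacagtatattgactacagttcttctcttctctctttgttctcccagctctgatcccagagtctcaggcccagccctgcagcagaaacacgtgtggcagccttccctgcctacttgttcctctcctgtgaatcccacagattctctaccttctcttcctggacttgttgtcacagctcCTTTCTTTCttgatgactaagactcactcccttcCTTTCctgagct
Casp4, chr9:5308599-5308848, plus strand: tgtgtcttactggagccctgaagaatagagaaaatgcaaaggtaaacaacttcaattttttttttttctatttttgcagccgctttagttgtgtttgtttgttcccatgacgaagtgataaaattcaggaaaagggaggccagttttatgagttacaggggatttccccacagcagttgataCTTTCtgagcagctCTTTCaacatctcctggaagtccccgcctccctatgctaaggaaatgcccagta
Apaf1, chr10:91082744-91082993, minus strand: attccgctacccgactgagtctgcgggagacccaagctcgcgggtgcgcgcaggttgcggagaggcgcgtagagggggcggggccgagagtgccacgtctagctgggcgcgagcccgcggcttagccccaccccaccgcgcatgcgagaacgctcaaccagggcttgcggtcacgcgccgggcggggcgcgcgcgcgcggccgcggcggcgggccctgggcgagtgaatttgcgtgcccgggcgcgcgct
Xiap, chrX:42068148-42068397, plus strand: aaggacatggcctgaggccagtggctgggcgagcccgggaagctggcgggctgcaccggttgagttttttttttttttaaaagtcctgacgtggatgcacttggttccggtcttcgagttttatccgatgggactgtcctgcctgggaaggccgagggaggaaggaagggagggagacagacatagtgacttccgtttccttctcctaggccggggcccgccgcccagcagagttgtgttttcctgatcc

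All 8 genes had a promoter in the RefSeq table, with 11 starts in all. GAAAG, searched on both strands, was found 3 times before the start of Casp1, beginning 46, 42 and 12 bases before it, with the first and second sharing a base. It was found 2 times before the first start of Casp4, at 68 and 54 bases, and 1 time in Casp8, at 116 bases. The window of the second Casp4 start overlaps the first and held it 3 times, at 79, 65 and 10 bases. Those at 79 and 65 are the same sites as those at 68 and 54. None of the windows of Casp2, Casp6, Casp9, Apaf1 and Xiap held it. GAAAG was in 51.5% of all 32851 promoter windows, and 5.13% held it 3 times or more. The longer Blimp-1 form AGNGAAAG, which contains GAAAG, the interferon response form (GAAA, any 2 bases and GAAA again), which can overlap both, and the STAT form TTCNNNGAA were found in none of the 11 windows, against 7.3%, 2.98% and 7.02% of all windows. The windows also differed in base composition: Apaf1 was 75.6% G and C with 42 CpG, Xiap 57.6% with 13, Casp1 49.2% with 1 and Casp4 41.6% with 3, against medians of 52.4% and 6 over all windows. Genes that were higher in 3 of 3 pairs thus included both CpG-rich and CpG-poor promoters. A match is a description of letters, and no binding data were used.

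The wider pathways were described by 7 lists with 88 genes, of which 72 were tested. None passed over all genes in the fit without the block or with it. In all, 28 were higher and 19 lower in 3 of 3 pairs, and 25 had mixed signs. The counts of each list below are to be read against the 22.9% of all genes that were higher and the 22.8% that were lower in 3 of 3 pairs. The median log2 fold change of the 72 was 0.04. At an unadjusted p below 0.05 with the block, 15 were higher and 11 lower, where 9.79% and 10.7% of all genes were.

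IAP proteins share with Xiap the domain that holds caspases or other partners. Of the 9 tested genes of IAP proteins and their antagonists, 4 were higher and 2 lower in 3 of 3 pairs. Birc3, which encodes the ubiquitin ligase cIAP2, was measured as 21.0, 25.1 and 16.9 FPKM in empty vector cells, against 26.6, 30.4 and 19.8 in Blimp-1 cells, higher by 26.8%, 21.2% and 17.1% (limma adjusted p = 0.151 with the block). Its close relative Birc2, cIAP1, was higher by 22.4%, 23.7% and 16.5%, and Birc6, a giant IAP, by 17.8%, 15.8% and 14.6%, both named after their values had been seen. Birc5, survivin, which acts mainly in mitosis, was lower (-28.7%, -35.4% and -5.54%), from 154 ± 64.8 to 125 ± 78.7 FPKM (SD, n = 3 each). It was highest in both replicate 3 libraries, at 227 and 215 FPKM.

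Among 11 tested mitochondrial death factors and apoptosome regulators, 2 were higher and 5 lower in 3 of 3 pairs, and the median was -0.12. Aven, whose product binds Apaf1 and restrains its assembly, was lower, at -20.3%, -23.4% and -24.7% (18.9 ± 3.9 and 14.6 ± 2.69 FPKM, SD, n = 3 each; log2 fold change -0.35, limma adjusted p = 0.143 with the block). Aifm2, an oxidoreductase first described as a death factor and now known for protecting membranes from lipid peroxidation, was higher by 78.3%, 89.7% and 82.0%, from 1.14 ± 0.363 to 2.07 ± 0.613 FPKM (limma adjusted p = 0.143 with the block). With the most abundant of its 3 transcripts alone, the log2 fold change of Aifm2 went from 0.52 to 0.32. Ptma, the most abundant gene of this list, was at 1479 ± 278 and 1399 ± 313 FPKM. It encodes prothymosin alpha, which keeps Apaf1 from assembling.

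Of 15 tested genes of death receptors and the caspase-8 complex, 5 were higher and 4 lower in 3 of 3 pairs. Tnfaip3, which encodes the NF-kB inhibitor A20, was higher by 36.5%, 16.2% and 31.6%. Ripk3, the kinase of necroptosis that caspase-8 holds in check, was lower (-28.2%, -12.9% and -25.0%), from 30.3 ± 10.5 to 23.2 ± 6.81 FPKM (SD, n = 3 each). The limma adjusted p with the block was 0.146 for both.

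PIDDosome and p53 death genes had the highest median of the 7 lists, 0.25 over 11 genes, with 6 higher and 2 lower in 3 of 3 pairs. Perp, a p53 target of the cell membrane, was measured as 6.46, 3.13 and 6.02 FPKM in empty vector cells, against 11.97, 4.36 and 8.31 in Blimp-1 cells (log2 fold change 0.53, limma adjusted p = 0.143 with the block). The log2 fold change was 0.24 without Blimp-1 replicate 1, 0.26 without empty vector replicate 2 and 0.87 without Blimp-1 replicate 2. Trp53inp1, the most abundant, was higher by 18.7% and 61.6% in pairs 1 and 3 and differed by -0.326% in pair 2.

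Of 17 inflammasome and pyroptosis genes 10 were tested, and 5 were higher and 1 lower in 3 of 3 pairs. Nlrp3, Nlrc4, Mefv, Il1a and Il1b stayed below 1 FPKM. Pycard, the adapter that links sensors to Casp1, was at 43.0 ± 3.46 and 45.9 ± 1.28 FPKM (SD, n = 3 each), and Gsdmd, gasdermin D, at 28.0 ± 1.2 and 27.1 ± 1.96. Aim2, a sensor of cytosolic DNA, was named after its values had been seen and was higher by 39.7%, 24.8% and 26.4%. Il18, a Casp1 substrate, was measured as 2.01, 1.31 and 0 FPKM in empty vector cells, against 2.51, 1.60 and 1.52 in Blimp-1 cells, and it was listed at 0 in empty vector replicate 3, which need not mean absence. Nlrp1a was lower, at 1.68 ± 0.208 and 1.37 ± 0.132 FPKM. Gbp2 was the most abundant, at 51.0 ± 7.21 and 50.9 ± 6.56 FPKM.

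Of 14 tested caspase substrates and nuclease effectors, 5 were higher and 5 lower in 3 of 3 pairs, and the median was 0.03. Pak2, a kinase that caspases switch on by cleavage, was higher by 33.7%, 11.8% and 24.9%. Acin1, a chromatin condensation factor, was lower (-18.3%, -7.40% and -20.3%), and its values did not overlap between the vectors, as for 2.34% of all genes (76.1 ± 7.48 and 64.2 ± 5.89 FPKM, SD, n = 3 each). With the most abundant of its 6 transcripts alone, its log2 fold change went from -0.24 to -0.05. Stk4, the kinase Mst1, was the most abundant at 74.7 ± 25.8 and 82.4 ± 11.0 FPKM.

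**Figure D4:**
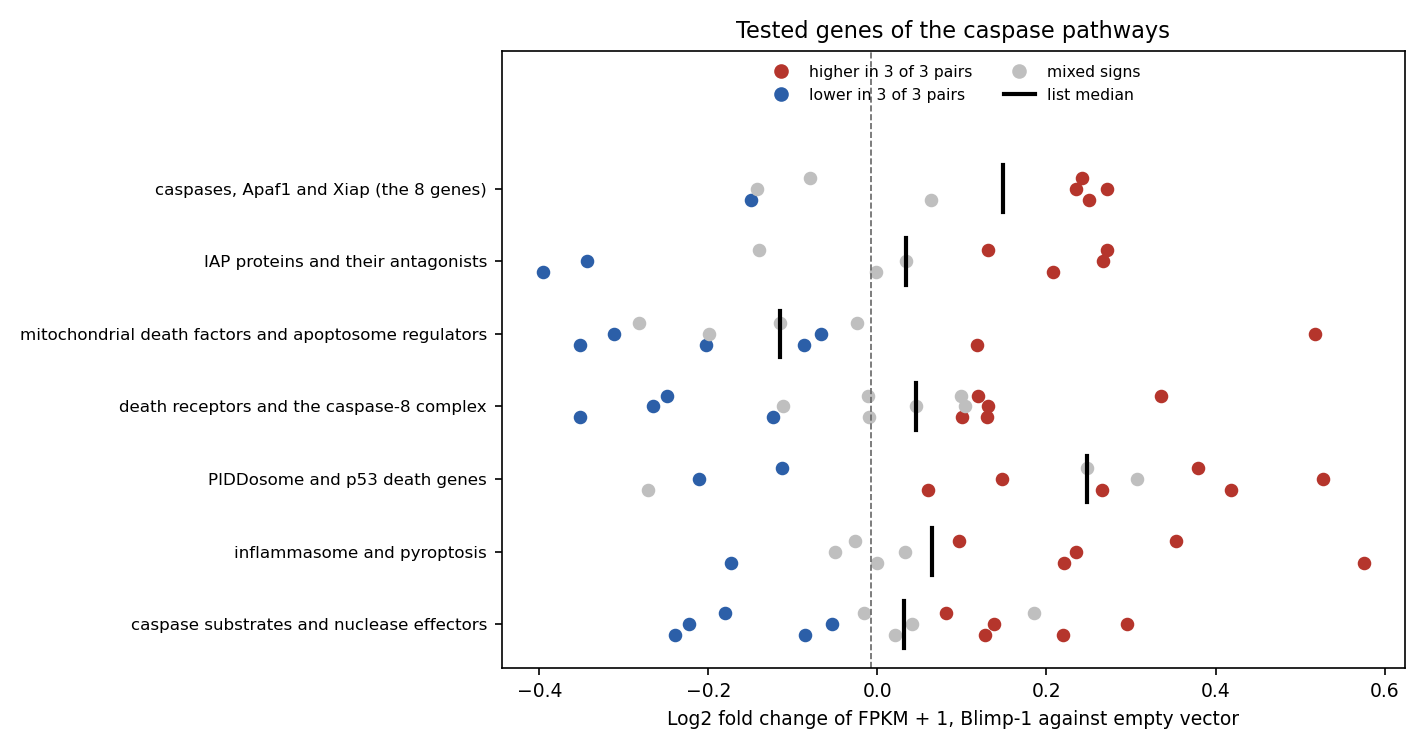
Log2 fold changes of FPKM + 1 for the 8 genes and the tested genes of 6 lists, coloured by whether the 3 pairs moved the same way, with a black bar at each list's median and a dashed line at the median of all genes tested (-0.01). The 8 genes split into 4 points between 0.23 and 0.27 and 4 between -0.15 and 0.06.

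Within the 8 genes, Casp4 and Xiap followed each other most closely over the 6 libraries (Pearson r = 0.99 on log2 values), while Casp8 and Apaf1 ran against each other (r = -0.89). Among 79 other genes, which are the 72 tested genes of the lists and the 7 others of the 8, the closest pattern to Casp1 was that of Casp8ap2 (r = 0.91), to Casp2 that of Cflar (0.97), to Apaf1 that of Zmat3 (0.97), to Casp6 that of Gsdmd (0.94), to Casp8 that of Diablo (0.99), to Casp9 that of Panx1 (0.98) and to Xiap that of Rock1 (0.99). By rank (Spearman), the correlation was 0.77 for Casp8 with Diablo and for Casp1 with Casp8ap2. It was 0.94 for Xiap with Rock1, and 1 for Casp2, Casp6, Casp9 and Apaf1 with theirs. Casp8 and Diablo were both highest in empty vector replicate 3. These values describe 6 libraries that share a replicate structure and differ in depth, and each closest gene was picked as the highest of many.

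**Figure D5:**
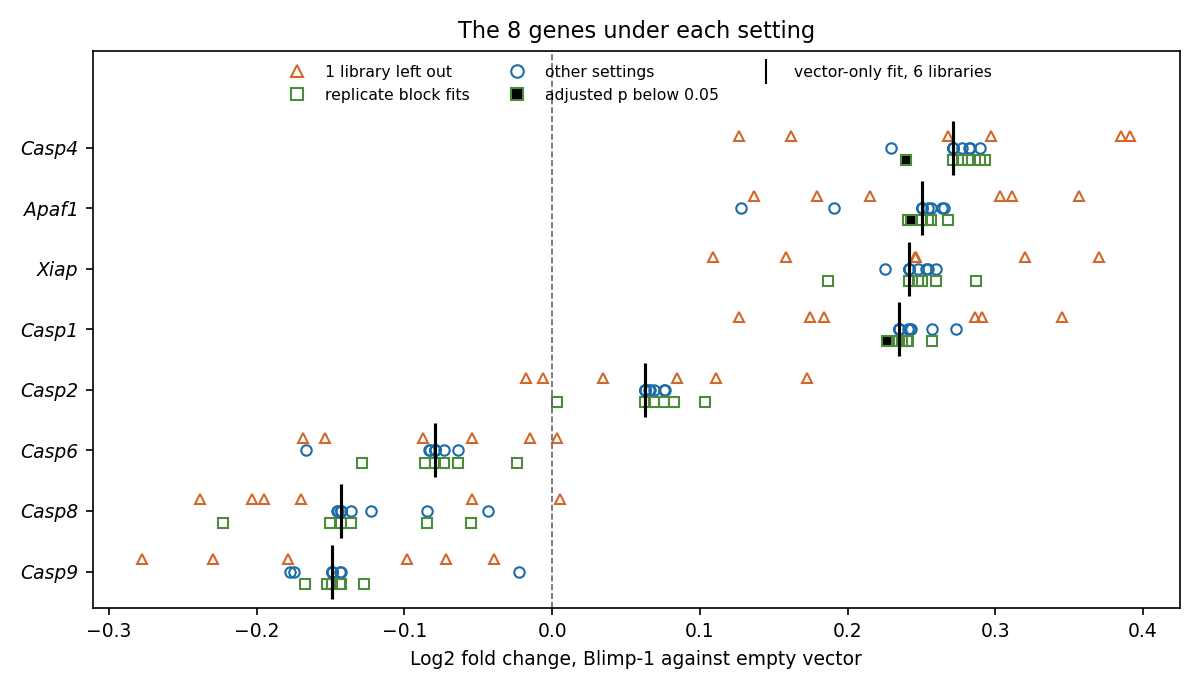
Log2 fold changes of the 8 genes under the 21 other settings, grouped into fits with 1 library left out (triangles), fits with a replicate block (squares) and other settings (circles), with a vertical bar for the 6-library fit without the block and filled symbols where the adjusted p was below 0.05. Casp4, Apaf1, Xiap and Casp1 stay above 0 and Casp9 stays below 0 in all 21, and the filled symbols come from the blocked fit without pair 3.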

How the data were processed

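The deposited table gives FPKM values for 29868 RefSeq transcripts in 6 libraries; its header names no unit, and the authors' use of Cufflinks 2.2, with CASAVA 1.8.2, Partek 6.6 and the build mm9, is per the submitters' processing notes, which give no roles. The aligner, annotation release, filters and strand setting are given in none of the sources used here, so reads of overlapping genes cannot be told apart.

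Transcript values were summed per gene (22529 genes), named through RefSeq GRCm38.p6 by accession for 28736 transcripts. Of these, 10839 reached 1 FPKM in 3 or more libraries and entered limma 3.58.1 (R 4.3.3) as log2(FPKM + 1). The model held only the vector, the prior variance followed a trend on the mean level, and p-values were adjusted by Benjamini-Hochberg over these genes. Fold changes are on that scale, which understates changes of low genes. The script was tested on simulated data. P-values weigh a difference against the spread between libraries of the same vector. With the replicate block they weigh it against the spread between pair differences.

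Labels number the replicates 1 to 3 in each vector without saying what a number marks. After the vector means were removed, libraries of the same number correlated at 0.79, 0.81 and 0.70, so the numbers were taken to pair them, and a second fit had a replicate block. Depth was estimated from the lowest values of genes with 1 transcript, taken as 1 read. Read numbers use GENCODE transcript lengths, and counting error covers counting only.

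All 8 genes were named. Of each list, the genes with the highest mean, the largest rise and the largest fall among those moving the same way in 3 of 3 pairs were named, with partners of the 8 genes. Some list genes are not reported here. The members and lists were chosen with earlier results of these data known. Alternatives were other pseudocounts, filters, scalings, weights, transcript choices and libraries left out.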

Additional observations from a re-analysis of the deposited data

How the results depend on the processing

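Without the block, 0 genes were called higher or lower by limma, with 122 at an unadjusted p below 0.05. With the replicate block 1 gene, Prdm1, was higher and 1 lower, also with median ratio scaling or quantile normalization added. Without the block, median ratio scaling and limma array weights gave 1 higher each, and leaving out single libraries gave 0 to 1 higher and 0 lower. The blocked fits without pair 1, 2 or 3, added after the data were seen, gave 1, 7 and 537 higher and 2, 20 and 670 lower. The number of the 8 genes called was 0 in all settings but the blocked fit without pair 3, where it was 3. Of the values of the 8 genes under the 21 settings, 161 kept direction and call, 3 passed the threshold and 4 changed sign. The sign changes were those of Casp8 without empty vector replicate 3, Casp2 without empty vector replicate 3 or Blimp-1 replicate 2, and Casp6 without Blimp-1 replicate 3. With single libraries left out, the log2 fold change ranged from -0.24 to 0.0056 for Casp8, from -0.018 to 0.17 for Casp2 and from -0.17 to 0.0033 for Casp6. It ranged from -0.28 to -0.04 for Casp9, from 0.14 to 0.36 for Apaf1, from 0.13 to 0.34 for Casp1, from 0.13 to 0.39 for Casp4 and from 0.11 to 0.37 for Xiap.

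Of the other named genes, Ptma changed sign with quantile normalization, with and without the block (0.014). Fas changed sign with array weights (-0.031) and in the blocked fit without pair 3 (-0.015). Gbp2, near 0, was at 0.0061 with median ratio scaling and 0.050 with quantile normalization, both with and without the block, and at 0.057 in the blocked fit without pair 2. With single libraries left out, Ptma ranged from -0.25 to 0.063, Fas from -0.066 to 0.15, Gbp2 from -0.11 to 0.088, Stk4 from -0.034 to 0.44 and Perp from 0.24 to 0.87. The value also moved by over 1.5 times, with its sign kept, for Birc5 from -0.87 to -0.035, Birc3 from 0.13 to 0.44, Aven from -0.52 to -0.21, Tnfaip3 from 0.12 to 0.51, Ripk3 from -0.61 to -0.11, Trp53inp1 from 0.0028 to 0.6, Cradd from -0.37 to -0.058, Il18 from 0.11 to 0.9 and Pak2 from 0.13 to 0.46. The cause was not tested. For Prdm1 the limma adjusted p was 0.056 without the block and 0.00493 with it.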

Other observations

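Casp14 was listed at 0 in all 6 libraries and Casp12 at 0 to 0.0665 FPKM, so neither was tested. Hspa1a and Hspa1b, near-identical heat shock protein genes whose reads can be split between them, were at 4.2 and 4.74 FPKM in Blimp-1 replicate 1 and below 1 FPKM in the other 5 libraries. Endog, a mitochondrial nuclease, had values that did not overlap between the vectors and were lower with Blimp-1, as for 2.34% of all genes. It was at 5.75, 5.66 and 8.37 FPKM in empty vector cells, against 4.97, 5.11 and 5.04 in Blimp-1 cells. Pmaip1, the BH3-only gene Noxa, did not overlap in the other direction, as for 2.29% of all genes. Its values were 6.29, 5.71 and 5.83 against 9.19, 7.45 and 7.53 FPKM (limma adjusted p = 0.143 with the block). Of the 72 tested list genes, 3 did not overlap as higher and 4 as lower. Mdm4, an inhibitor of p53, had very even values, at 56.3 FPKM in each empty vector library and at 61.2, 63.4 and 62.7 with Blimp-1. These were named after their values had been seen.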
